A study of Mus musculus with 53 samples.

Results

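Inflammasome and IL-1 family genes were followed through a time course of IL-4 in bone marrow-derived macrophages (BMDMs). The group held 10 genes, Il1a, Il1b, Il1rn, Il18, Nlrp3, Nlrc4, Aim2, Casp1, Casp4 and Pycard, which were picked by name from the 23847 loci of the expression tables. BMDMs of WT mice and of Stat6-/- mice, which lack STAT6 in the whole body, came from animals on the C57BL/6 background aged 8 to 12 weeks. Bone marrow cells were grown for 6 days with the macrophage growth factor M-CSF, which the study supplied as L929 cell supernatant. They then received 20 ng/ml of IL-4 and were harvested after 1, 3, 6 or 24 h beside untreated controls of the same times, and a control at 0 h was added. This gave 53 samples in 18 groups, namely 4 WT samples in each WT group (3 in the 24 h IL-4 group) and 2 samples in each Stat6-/- group. Nothing in the labels says which samples came from the same animal. The study's legend describes its WT averages as coming from individual animals, as many as there are WT replicate numbers. Samples of different times and treatments may therefore share animals. The main test treats all samples as independent and takes no account of such sharing. The p-values below therefore rest on the spread between samples of a group, and the labels do not say whether that is a spread between animals.

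IL-1β and IL-18 are cytokines made as inactive precursors. A sensor of the cytosol, such as NLRP3, NLRC4 or AIM2, joins the adaptor ASC (encoded by Pycard) and caspase-1 (Casp1) into an inflammasome, and caspase-1 then cuts both precursors. Caspase-11 (Casp4 in the mouse) responds to cytosolic lipopolysaccharide, and both caspases can start the lytic cell death called pyroptosis. In macrophages the supply of Il1b and Nlrp3 mRNA is itself regulated and is usually raised by inflammatory signals before an inflammasome forms. IL-4 acts through the transcription factor STAT6, and the comparison of genotypes asks whether a change needs STAT6.

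Of the 10 genes 9 could be tested, since Il1a did not reach 1 FPKM (fragments counted per kilobase of transcript length and relative to the total mapped in a sample) in any sample. The base sequence before the start of a gene is where factors such as STAT6 may bind, so the 250 bases upstream of the RefSeq start (GRCm38.p6) are shown for 4 genes. They are Il1b and Nlrp3, which were among those with the largest changes, and the neighbouring caspase genes Casp4 and Casp1, of which the former changed at 24 h and the latter did not pass the test. Capitals mark letters that match any of the 7 motifs searched on both strands, which may overlap. Il1b lies on the minus strand, chr2:129371140-129371389, and Nlrp3, Casp4 and Casp1 on the plus strand, chr11:59542436-59542685, chr9:5308610-5308859 and chr9:5298267-5298516.
Il1b: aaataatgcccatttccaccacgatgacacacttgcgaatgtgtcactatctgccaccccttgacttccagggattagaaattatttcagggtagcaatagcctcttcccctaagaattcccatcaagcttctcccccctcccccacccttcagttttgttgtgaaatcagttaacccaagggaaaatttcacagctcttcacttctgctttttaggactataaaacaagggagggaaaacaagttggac
Nlrp3: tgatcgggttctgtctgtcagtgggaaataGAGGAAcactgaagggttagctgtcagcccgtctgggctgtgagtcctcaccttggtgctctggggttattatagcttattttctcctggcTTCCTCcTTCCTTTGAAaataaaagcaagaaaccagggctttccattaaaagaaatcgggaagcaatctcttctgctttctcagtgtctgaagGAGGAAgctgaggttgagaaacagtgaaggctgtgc
Casp4: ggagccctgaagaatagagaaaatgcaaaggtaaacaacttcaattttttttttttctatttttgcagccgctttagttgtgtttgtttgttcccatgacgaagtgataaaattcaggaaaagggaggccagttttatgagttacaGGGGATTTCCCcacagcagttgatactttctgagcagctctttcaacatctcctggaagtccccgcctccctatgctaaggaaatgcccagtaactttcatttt
Casp1: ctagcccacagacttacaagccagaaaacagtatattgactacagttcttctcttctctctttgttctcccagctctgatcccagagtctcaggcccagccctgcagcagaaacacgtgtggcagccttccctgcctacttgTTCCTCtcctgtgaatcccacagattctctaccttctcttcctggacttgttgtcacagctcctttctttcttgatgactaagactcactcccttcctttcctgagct

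The motif for STAT6, TTC and GAA with 4 bases between them, was present at position -122 from the start of Nlrp3 and at -46 from the RefSeq start of Il18, and in 5.9% of 27025 promoters of the same length. The start of Il18 in the expression tables lies 10668 bases further into the gene, so the window of Il18 is not printed. Il1b held none of the 7 motifs in these 250 bases. Casp4 held an NF-κB motif (3.8% of all promoters), read in overlapping positions that begin at -104 and -103 from its start. The PU.1 letters GAGGAA occurred in Il1a, Nlrp3, Aim2, Casp1 and Pycard (23.1% of all promoters), with 3 matches in Nlrp3. The AP-1 letters TGANTCA occurred in Il1a and Il1rn (6.9%), and the C/EBP letters TTGCNNAA in Nlrc4 and Pycard (9.6%). No member held TTC and GAA with 3 bases between them (7.2%) or a pair of GAAA with 2 bases between them (3.0%). These matches describe letters and not bound sites.

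Stat6 itself lay between 14.3 and 24.0 FPKM in the 18 Stat6-/- samples and between 58.7 and 90.6 FPKM in the 35 WT samples. Each library therefore matched the genotype in its label, although the transcript remained measurable in the knockout. The treatment and time in the labels were not checked this way. Depth relative to the median sample ranged from 0.706 to 1.555, with similar ranges in both genotypes. All 8 macrophage markers were present, with a summed level of 3010 to 3965 FPKM in WT controls, and the T cell and fibroblast markers stayed below 1 FPKM in every sample. Replicate 2 of Stat6-/- stood apart from replicate 1 for several members in nearly every group, as described with the knockout values.

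The 10 genes differed widely in level, per transcript length, before IL-4 was given. In WT at 0 h Casp1 was the most abundant at 94.9 ± 7.75 FPKM (SD, n = 4), followed by Pycard at 37.2 ± 10.4 and Casp4 at 28.3 ± 1.33 FPKM. Il1rn (18.2 FPKM), Il18 (16.7), Aim2 (16.6) and Nlrp3 (15.5) came next, and from Casp4 to Nlrp3 each gene overlapped its neighbour in that order. Il1b at 10.8 ± 3.06 FPKM lay below Nlrp3 in every sample and overlapped Nlrc4 at 6.65 ± 0.375 FPKM. Il1a, which encodes IL-1α, was at 0.0776 FPKM, and in the whole series it remained far below 1 FPKM, so it was not tested. Its highest WT group was IL-4 at 6 h, with 0.174, 0.249, 0.107 and 0.162 FPKM against 0.0508, 0.0174, 0.0380 and 0.0658 FPKM in controls.

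Il1b was the tested member with the largest difference at 3, 6 and 24 h, although that at 6 h did not pass. Its WT controls were low at 1 h (6.19 ± 2.33 FPKM) and higher at 3 h (28.6 ± 6.51), 6 h (31.4 ± 9.94) and 24 h (32.9 ± 12.3). With IL-4 for 24 h the 3 samples held 0.680, 0.290 and 0.756 FPKM, against 48.9, 28.6, 34.6 and 19.6 FPKM in the 4 controls. Every IL-4 sample therefore lay far below every control, and the mean was 1.75% of the control mean, a 57.2-fold difference on the FPKM scale.

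On the log2(FPKM + 1) scale used for testing, which understates changes of low values, Il1b fell by 4.37 (SE 0.66) at 24 h (limma, adjusted p = 6.6e-07). At 3 h the IL-4 samples held 8.37, 7.59, 4.29 and 7.08 FPKM and the controls 31.7, 36.2, 22.4 and 24.0 FPKM. The groups did not overlap, and Il1b was lower than in controls of that time by 1.92 (SE 0.61, adjusted p = 0.014). Against a mean of 10.8 FPKM at 0 h, controls averaged 28.6 FPKM at 3 h and 31.4 FPKM at 6 h. With IL-4 the means were 6.8 and 10.85 FPKM, so the 6 h mean was near the 0 h level. A gene by gene test of all pairs of groups with Tukey's adjustment did not call this 3 h difference (adjusted p = 0.25). At 6 h the IL-4 samples held 12.1, 12.7, 9.54 and 9.04 FPKM against 38.7, 40.2, 27.5 and 19.1 FPKM. These groups did not overlap either, yet the difference of -1.40 (SE 0.61) missed the threshold (adjusted p = 0.062). With the replicate number as a block, or with only the 2 compared groups in the fit, it passed (adjusted p = 1.8e-07 and 0.00094). The SD of Il1b within groups on the log2 scale was 0.43 in WT and 1.60 in Stat6-/-, and all groups shared a single estimate of spread in the main test. At 1 h the values were 3.80, 4.06, 2.01 and 1.09 FPKM with IL-4 against 7.34, 8.90, 4.52 and 3.98 FPKM, which overlapped slightly, with a difference of -0.97 (SE 0.61, adjusted p = 0.40).

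Il18, the other inflammasome substrate, passed the test at 6 and 24 h. Its level in WT at 24 h was 3.88, 3.64 and 3.37 FPKM with IL-4 against 13.3, 14.5, 12.4 and 11.0 FPKM in controls. The mean was 28.3% of the control mean with no overlap, and Il18 fell by 1.57 on the log2 scale (SE 0.28, adjusted p = 1.5e-05). At 6 h it was at 8.54, 9.13, 7.80 and 7.24 FPKM against 14.7, 15.5, 14.7 and 12.2 FPKM, and it fell by 0.74 (SE 0.26, adjusted p = 0.023). The 6 h call was lost without control replicate 2 (adjusted p = 0.054) or IL-4 replicate 4 (0.057), with no filter on low values (0.051) and in Tukey's test (0.39). At 3 h every IL-4 sample was below every control (10.9 against 13.9 FPKM on average), but the difference of -0.32 did not pass (adjusted p = 0.42, but 0.015 with the replicate block and 0.031 with the compared groups alone).

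Il1rn encodes the receptor antagonist that keeps IL-1 from signalling, and it did not pass the test at any time. At 24 h it held 21.2, 12.5 and 10.5 FPKM with IL-4 against 8.65, 8.11, 9.09 and 10.8 FPKM in controls, ranges that overlapped by a single pair of samples. The difference was 0.58 on the log2 scale (SE 0.58, adjusted p = 0.41 over all samples, 0.042 with only the compared groups in the fit). As a description, the ratio of Il1rn to Il1b FPKM was 0.177 to 0.549 in the 4 WT controls at 24 h and 13.9 to 43.2 in the 3 IL-4 samples. In those 3 samples the divisor Il1b was at only 0.290 to 0.756 FPKM. At 6 h the same ratio was 0.378 to 0.613 in controls and 0.911 to 1.101 with IL-4.

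**Figure D1:**
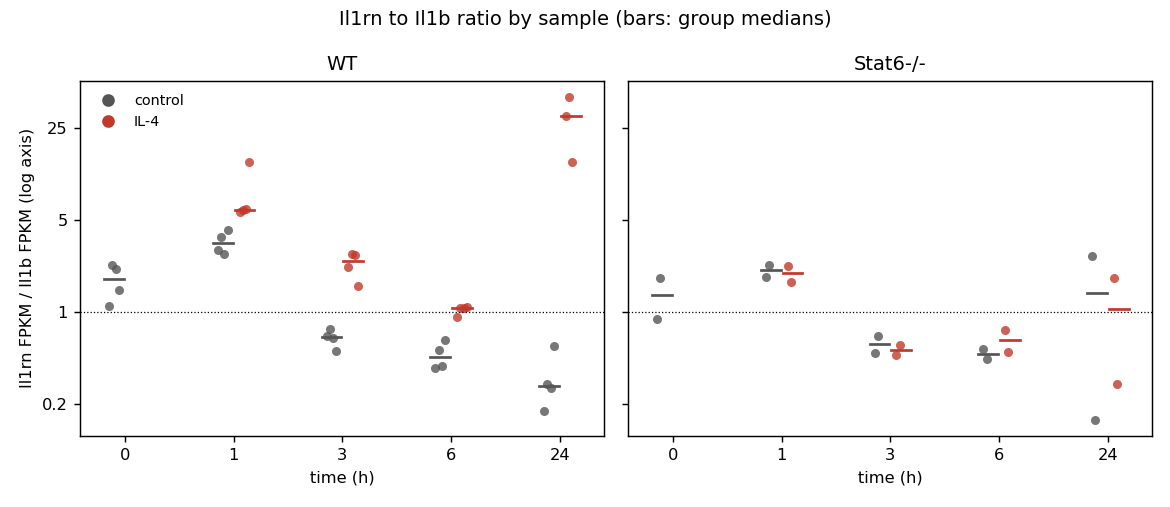
Ratio of Il1rn to Il1b FPKM (log axis) by time in hours for each WT (left) and Stat6-/- (right) sample, with controls in grey, IL-4 in red, group medians as bars and equality as a dotted line. In WT at 24 h the 4 controls sit between 0.177 and 0.549 and the 3 IL-4 samples between 13.9 and 43.2. In Stat6-/- at 24 h the 2 controls are at 2.66 and 0.152 and the 2 IL-4 samples at 1.82 and 0.282 (replicates 1 and 2).

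Of the 3 sensors Nlrp3, Nlrc4 and Aim2, Nlrp3 had the largest difference at 3 and 24 h. Its WT controls stayed close together at every time, at 15.6 ± 1.098 FPKM at 3 h and 13.1 ± 0.859 FPKM at 24 h. The IL-4 samples held 8.21, 8.77, 8.10 and 9.56 FPKM at 3 h. They held 9.12, 11.8, 8.46 and 9.08 FPKM at 6 h, and 4.02, 2.43 and 3.17 FPKM at 24 h. Every one of these samples was below every control of its time, whereas at 1 h the groups overlapped (15.45 against 15.6 FPKM on average).

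Nlrp3 fell by 0.78 at 3 h (SE 0.14, adjusted p = 3e-05), by 0.62 at 6 h (SE 0.14, adjusted p = 0.00054) and by 1.76 at 24 h (SE 0.15, adjusted p = 4.1e-12) on the log2 scale. The mean at 24 h was 24.5% of the control mean. These 3 calls of Nlrp3 held in every alternative setting that was run.

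Nlrc4, which with NAIP proteins detects bacterial flagellin and secretion systems, changed in both directions. At 1 h it was at 6.67, 6.55, 6.16 and 6.83 FPKM with IL-4 against 4.66, 5.22, 5.79 and 5.36 FPKM in controls, and it rose by 0.27 (SE 0.07, adjusted p = 0.0058). All 4 IL-4 samples at 1 h lay above the controls, but they were near the level of 6.65 FPKM at 0 h, and the 1 h controls were the low group. In Stat6-/- at 1 h it was at 5.53 and 4.81 FPKM with IL-4 and 5.60 and 4.69 FPKM without, against 6.81 and 5.83 FPKM at 0 h. At 6 h it was at 3.97 ± 0.387 against 6.67 ± 0.538 FPKM and at 24 h at 3.83 ± 0.302 against 7.34 ± 0.131 FPKM. Nlrc4 fell by 0.63 (SE 0.07, adjusted p = 1.4e-09) and 0.79 (SE 0.08, adjusted p = 3.3e-11) at these times, with no overlap between groups. At 3 h its difference of -0.17 did not pass (adjusted p = 0.056), but it did with the replicate block (0.020), with only the compared groups (0.015), with quantile normalization (0.030) and without IL-4 replicate 3 (0.048).

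Aim2, the sensor of cytosolic DNA, passed as lower at 3 and 6 h and not at 1 or 24 h. It was at 10.6, 11.5, 9.999 and 9.48 FPKM with IL-4 at 3 h against 16.1, 16.8, 16.3 and 15.7 FPKM, and at 9.93, 9.60, 9.14 and 8.18 FPKM at 6 h against 16.5, 15.9, 14.5 and 13.7 FPKM. Aim2 fell by 0.60 at 3 h (SE 0.17, adjusted p = 0.0047) and by 0.66 at 6 h (SE 0.17, adjusted p = 0.0013), and the groups did not overlap at either time. Tukey's test did not call the 3 h difference of Aim2 (adjusted p = 0.086). At 24 h the IL-4 samples (11.3 ± 0.498 FPKM, n = 3) lay within the range of the controls (11.8 ± 1.56 FPKM, n = 4), with a difference of -0.05 (SE 0.18, adjusted p = 0.84). The controls of Aim2 were lower at 24 h than at 0 h (-0.47, SE 0.17, adjusted p = 0.045), a call that was lost without any of 7 of the 8 samples in turn (adjusted p from 0.060 to 0.13). Whether the response of Aim2 differed between 24 and 6 h did not pass (0.61, SE 0.24, adjusted p = 0.057).

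**Figure D2:**
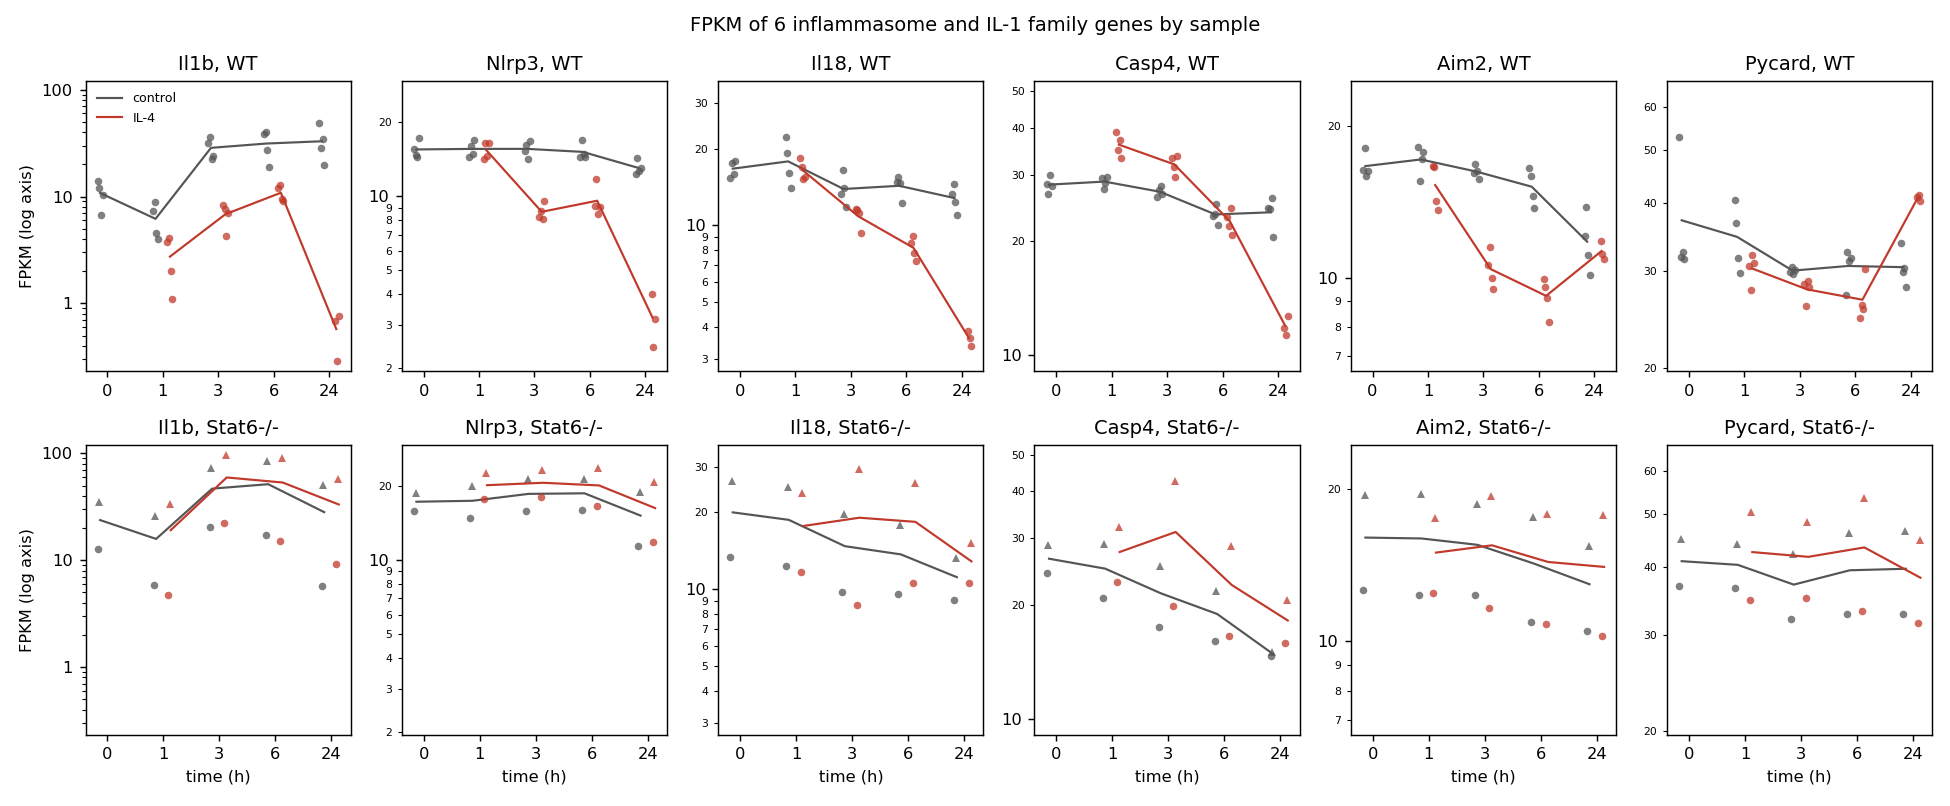
FPKM (log axis) by time in hours for 6 genes in WT (top) and Stat6-/- (bottom), each point a sample, with controls in grey, IL-4 in red and lines through the group means. In Stat6-/- circles are replicate 1 and triangles replicate 2. In WT at 24 h every IL-4 sample of Il1b, Nlrp3, Il18 and Casp4 is below its controls and every Pycard sample is above.

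The effector side of the inflammasome responded differently from gene to gene. Casp1 remained between 73.8 and 106.8 FPKM in all 35 WT samples, its IL-4 and control groups overlapped at all 4 times, and its differences ranged from -0.08 to 0.13 on the log2 scale (adjusted p = 0.48 at the lowest). Casp4, whose gene starts 1578 bases beyond the end of Casp1 on the same strand, behaved otherwise. At 24 h it was at 11.8, 11.3 and 12.7 FPKM with IL-4 against 24.6, 24.4, 26.1 and 20.5 FPKM in controls, and it fell by 0.94 (SE 0.16, adjusted p = 4.4e-06), just under the 2-fold limit.

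Earlier the Casp4 values ran the other way. At 1 h all 4 IL-4 samples (36.1 ± 2.52 FPKM) lay above all 4 controls (28.8 ± 0.986 FPKM), and at 3 h again (32.0 ± 1.86 against 27.1 ± 0.758 FPKM). Neither difference passed the main test (0.31 and 0.23 on the log2 scale, SE 0.15, adjusted p = 0.21 and 0.27). With only the compared groups in the fit both passed (adjusted p = 0.0096 and 0.0055), and with the replicate block the 3 h difference did too (0.032). The response of Casp4 was lower at 24 h than at 6 h (-0.88, SE 0.21, adjusted p = 0.0017).

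Pycard was the only tested member that was higher with IL-4 at 24 h and passed. Its samples held 41.1, 41.4 and 40.4 FPKM against 33.8, 29.9, 30.4 and 28.0 FPKM, with no overlap. Pycard rose by 0.42 (SE 0.16, adjusted p = 0.027), but without control replicate 4 or any single IL-4 replicate, with no filter and in Tukey's test the call was lost (adjusted p from 0.054 to 0.34). In the 6 h groups it was at 26.6 ± 2.49 against 30.7 ± 2.44 FPKM, with overlap.

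Counted by time, 1 of 9 tested members passed an adjusted p of 0.05 at 1 h in WT (Nlrc4, higher), where 5.67% of all 11146 tested loci passed as higher and 3.72% as lower. At 3 h 3 members passed, all lower (Il1b, Nlrp3 and Aim2), against 12.5% of loci, and Il1b also reached the 2-fold limit downward, as 1.27% of loci did. At 6 h 4 members passed, all lower (Nlrc4, Nlrp3, Aim2 and Il18), against 19.2% of loci. At 24 h 5 members passed as lower (Il1b, Nlrp3, Il18, Casp4 and Nlrc4), against 31.6% of loci, and Pycard passed as higher, as 23.4% did. The first 3 of these reached 2-fold downward, against 4.58% of loci. The median difference of the 9 members was -0.09, -0.23, -0.62 and -0.79 at the 4 times, where the median of all tested loci was -0.02, 0.01, 0.00 and -0.07.

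**Figure D3:**
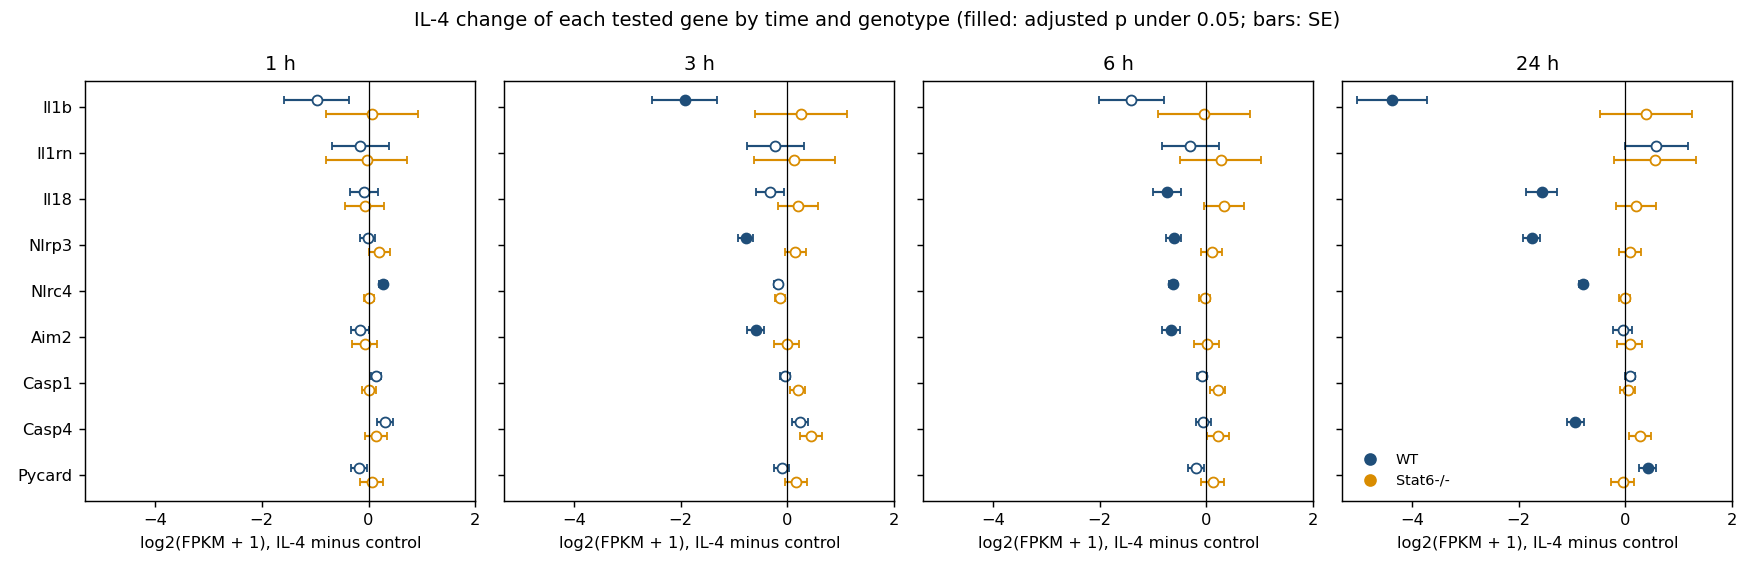
Difference between IL-4 and control in log2(FPKM + 1) for the 9 tested genes at 1, 3, 6 and 24 h, with WT in blue, Stat6-/- in orange, bars for the SE and filled points where the adjusted p was under 0.05. At 24 h in WT 5 genes are filled on the left of 0 and Pycard on the right, and no Stat6-/- point is filled.

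The responses at 24 and 6 h were also compared with each other. The 24 h response minus the 6 h response was -2.96 for Il1b (SE 0.90, adjusted p = 0.011) and -1.14 for Nlrp3 (SE 0.21, adjusted p = 5.3e-05). It was 0.61 for Pycard (SE 0.22, adjusted p = 0.032, lost in 8 of 20 alternatives), and -0.83 for Il18, which did not pass (SE 0.39, adjusted p = 0.11). In all, 4 members passed this comparison, against 27.8% of loci, and 2 were at least 2-fold lower, against 3.21%.

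At 24 h, markers of other cells and of macrophages moved with these genes in WT. Of 7 neutrophil markers tested, 5 passed as lower with IL-4, and their summed level was 226.5 to 328.1 FPKM against 453.7 to 631.2 FPKM in controls, most of it from S100a8 (96.0 against 222 FPKM) and S100a9 (128 against 233 FPKM), and Camp was at 5.07 against 11.3 FPKM. Of 8 macrophage markers 5 passed as lower, among them Fcgr1 (21.7 against 112 FPKM), Mertk (6.41 against 25.95 FPKM) and Lyz1 (13.3 against 38.5 FPKM), and their sum was 2829 to 2890 against 3457 to 3929 FPKM. Mrc1, a marker of macrophages that IL-4 is known to raise, passed as higher at 24 h (228 against 126 FPKM) and at 6 h (671 against 109 FPKM). Over all loci 31.6% passed as lower and 23.4% as higher at 24 h. The part of these markers in the changes of Il1b and the other members was not tested, and in bulk RNA fewer cells of a type and less RNA per cell cannot be told apart. At 3 and 6 h none of the 7 neutrophil markers passed. Among B cell markers Cd79b was lower at 24 h (1.32 against 3.98 FPKM), while Cd79a and Ms4a1 stayed below 1 FPKM.

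In Stat6-/- BMDMs no member passed the test at any time, and no locus of the 11146 did (0% at 1, 3, 6 and 24 h in limma). At 24 h Il1b was at 9.25 and 57.2 FPKM with IL-4 against 5.75 and 50.6 FPKM in controls, Nlrp3 at 11.85 and 20.7 against 11.45 and 18.9 FPKM, and Il18 at 10.5 and 15.2 against 9.06 and 13.2 FPKM. In each of these 3 genes both replicates were a little higher with IL-4, not lower. With an unadjusted p under 0.05, only Casp4 at 3 h would be counted (0.45, SE 0.21), and it stayed under 2-fold. The share of all loci under that p alone was not taken, so Casp4 has no like count beside it. With 2-fold required as well, no member would be counted, and 7, 8, 2 and 0 of all loci would be at the 4 times. With no filter on low values, which tests 23847 loci, 95, 9, 4 and 161 loci passed at 1, 3, 6 and 24 h. With the replicate number as a block 2, 4, 4 and 1 did, and with the compared groups alone or a pseudocount of 0.1, 1 did at 1 h and 0 at the other times. No member was among those that passed in these fits. Without replicate 1 of Stat6-/- in every group the Casp4 difference at 3 h was 0.72 and passed, with the lone samples assumed to vary like WT. With 2 samples per group, small responses could be missed.

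The difference between the WT and Stat6-/- responses was tested directly. At 24 h the WT response minus the Stat6-/- response was -4.76 for Il1b (SE 1.08, adjusted p = 0.00096), -1.84 for Nlrp3 (SE 0.25, adjusted p = 6.6e-07) and -1.76 for Il18 (SE 0.47, adjusted p = 0.0044). It was -1.21 for Casp4 (SE 0.26, adjusted p = 0.00051) and -0.77 for Nlrc4 (SE 0.12, adjusted p = 9.5e-06). These 5 of 9 members compare with 14.8% of loci that passed as lower, and the first 4 were at least 2-fold, against 3.51%. Leaving out replicate 1 of the 24 h Stat6-/- controls moved Il1b and Il18 past the threshold (adjusted p = 0.052 and 0.055), and leaving out replicate 2 with IL-4 did so for Il18 (0.051). In such a fit the lone sample left in its group is assumed to vary like the other groups.

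For Pycard at 24 h the difference of 0.47 (SE 0.26, adjusted p = 0.19) did not pass, so its response was not shown to differ between the genotypes. At 3 h Nlrp3 passed (-0.93, SE 0.25, adjusted p = 0.0081), against 4.22% of loci. At 6 h Nlrc4 (-0.59, SE 0.12, adjusted p = 0.00038) and Nlrp3 (-0.71, SE 0.25, adjusted p = 0.042) passed, against 7.19%. The call of Nlrp3 at 3 h was lost without replicate 1 of the Stat6-/- controls (adjusted p = 0.12) or replicate 2 with IL-4 (0.096), and that at 6 h in 9 of 19 alternatives. The 1 h difference of Nlrc4 was 0.27 (SE 0.12, adjusted p = 0.40), and no member passed at 1 h. Of all 11146 loci, 246 passed as higher and 128 (1.15%) as lower in this comparison. Il1b at 3 h differed by -2.18 with a large error (SE 1.05, adjusted p = 0.23, but 4.9e-06 with the replicate block). It was -2.32 without replicate 1 and -2.04 without replicate 2 of Stat6-/- in every group. No p is given for these, since each Stat6-/- group then holds 1 sample and the spread comes from WT alone.

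The 2 Stat6-/- replicates differed from each other in most members. Il1b was higher in replicate 2 in all 9 groups, by 2.77 to 8.79 times, for instance 96.5 against 22.5 FPKM with IL-4 at 3 h. Il1rn was 4.09 to 5.61 times higher in replicate 2 in the 7 groups up to 6 h, but at 24 h it was at 15.3 in replicate 1 and 7.68 FPKM in replicate 2 in the controls. Il18, Nlrp3, Aim2, Casp4 and Pycard were also higher in replicate 2 in all 9 groups, with median ratios of 2.03, 1.35, 1.58, 1.39 and 1.404. Nlrc4 was lower in 7 of 9 groups (median ratio 0.870).

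Over all 11146 loci, 15.6% were higher in replicate 2 in every group and 18.7% in replicate 1, and 2.62% were higher in replicate 2 with a median difference of at least 2-fold. The summed neutrophil markers overlapped between the replicates (646 to 1088 FPKM in replicate 1, 597 to 790 in replicate 2). Ccr7 made up most of the dendritic cell marker sum, which was 1.24 to 3.66 FPKM in replicate 1 and 3.59 to 7.30 in replicate 2, while Flt3, Zbtb46 and Xcr1 stayed below 1 FPKM. The part of these markers in the difference between replicates was not tested.

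**Figure D4:**
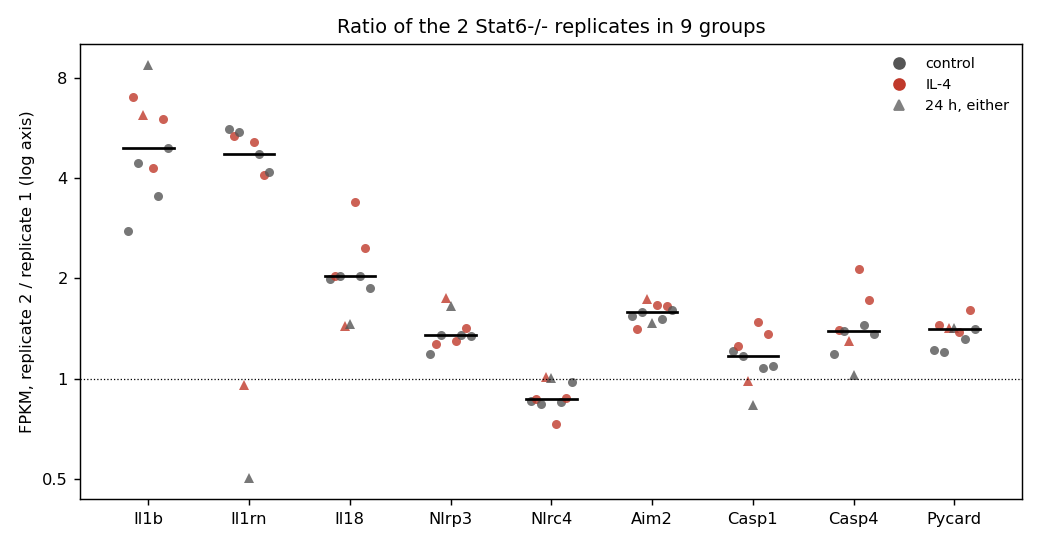
FPKM of Stat6-/- replicate 2 divided by replicate 1 (log axis) for the 9 tested genes, each point a group, triangles the 24 h groups, grey controls, red IL-4 and black bars the medians over 9 groups. Il1b lies between 2.77 and 8.79, and Il1rn lies above 4 except at 24 h, where it falls to 0.956 and 0.501.

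The controls of the 2 genotypes were compared over all 5 times. Casp4 (-0.32, SE 0.08, adjusted p = 0.0028) and Casp1 (-0.18, SE 0.05, adjusted p = 0.0089) were lower in Stat6-/-, and Pycard was higher (0.27, SE 0.08, adjusted p = 0.015). These 3 of 9 members compare with 21.4% of loci, and none reached 2-fold. All 7 neutrophil markers tested also passed as higher in Stat6-/- (median difference 0.617). Their sums were 597 to 1088 FPKM in Stat6-/- controls and 314 to 631 FPKM in WT controls. Of 8 macrophage markers 2 passed as higher and 1 as lower. The part of these markers in the differences between genotypes was not tested. The fit treats the 10 Stat6-/- controls as independent although they carry only 2 replicate numbers, so these p-values are too small if a number marks an animal. Casp4 kept its call in all 36 alternatives, while Pycard was 0.08 higher without replicate 2 and no longer passed. For Il1b, Il18 and Aim2 the direction depended on the replicate, with Il1b higher by 1.42 without replicate 1 and lower without replicate 2 (-0.64). Leaving out a replicate number leaves 1 Stat6-/- sample per group and takes the spread from WT alone, so no p is given for these values.

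The WT controls at 24 h were compared with those at 0 h. Of 9 members only Aim2 passed, as lower, against 11.6% of loci. Il1b was at 10.8 FPKM at 0 h and 32.9 FPKM at 24 h, with no overlap, a difference of 1.49 that missed the threshold (SE 0.61, adjusted p = 0.085) and passed with only these groups in the fit (0.0079). Il1rn ran the other way, from 18.2 to 9.16 FPKM without overlap (-0.87, SE 0.54, adjusted p = 0.27, and 0.015 with these groups alone). In Stat6-/- replicate 1 Il1b was at 12.6 FPKM at 0 h, 20.6 at 3 h and 5.75 at 24 h, and in replicate 2 at 34.9, 72.9 and 50.6 FPKM.

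Other genes of the pathway were taken from lists chosen by role. Among 13 further sensors and their partners, 10 were tested, and at 24 h in WT 7 passed as lower and 2 as higher, where 31.6% and 23.4% of all loci did. Mefv, which encodes pyrin, was at 5.32 against 22.5 FPKM (fell by 1.90, SE 0.13, adjusted p = 1.2e-14), Nlrp1b at 6.94 against 18.5 FPKM (fell by 1.29, SE 0.15, adjusted p = 1.9e-09), and the peptidoglycan sensor Nod1 at 2.99 against 8.51 FPKM (fell by 1.26, SE 0.13, adjusted p = 2e-10). Like Nlrc4, Mefv was higher at 1 h (23.2 against 14.02 FPKM, rose by 0.69, SE 0.12, adjusted p = 7.4e-05). Nod2 passed as lower at all 4 times, at 1.096 against 3.25 FPKM at 6 h (fell by 1.01, SE 0.20, adjusted p = 6.4e-05). With regard to Stat6, 6 of the 10 sensors had a lower and 2 a higher WT response at 24 h than the Stat6-/- response, as 14.8% and 12.2% of loci did.

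Of 10 regulators and pyroptosis effectors, 4 passed as lower at 3 h, 3 at 6 h and 4 at 24 h, and 2, 1 and 0 as higher. The shares of all loci that passed as lower were 12.5%, 19.2% and 31.6%, so the counts of lower genes at 6 and 24 h are near those of all loci. As higher, 16.4%, 22% and 23.4% of loci passed at these times. Dfna5, which encodes gasdermin E, was at 5.06 against 16.02 FPKM at 6 h (fell by 1.47, SE 0.25, adjusted p = 4.9e-06), but at 24 h its groups overlapped (adjusted p = 0.16). Pstpip1, whose product binds pyrin, was at 27.4 against 71.3 FPKM at 6 h (fell by 1.35, SE 0.14, adjusted p = 2e-10). Ninj1, which encodes a protein of plasma membrane rupture, was at 109.7 against 255 FPKM at 3 h (fell by 1.22, SE 0.45, adjusted p = 0.037).

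Receptors and decoys of the family passed in both directions. Of 7 tested, 5 passed as higher at 3 and at 6 h, where 16.4% and 22% of loci did. At 24 h 3 passed as higher and 1 as lower, where 23.4% and 31.6% of loci did. Il1r1 and Il1rl2 reached 1 FPKM in a single group each, with IL-4, and so entered the test through the group where they were high, which leaves these counts as a description. Il1rap, the accessory chain shared by the receptors of IL-1, IL-33 and IL-36, was at 11.7 against 2.66 FPKM at 6 h (rose by 1.75, SE 0.14, adjusted p = 9.7e-14) and back at 2.83 against 2.50 FPKM at 24 h (adjusted p = 0.49). Il1rl1, the receptor of IL-33, was at 3.68 against 0.309 FPKM at 24 h (rose by 1.75, SE 0.17, adjusted p = 4.3e-11). Il1rl2, the receptor of IL-36, was at 1.43 against 0.0782 FPKM at 24 h and no higher than 0.758 FPKM in any sample of the other groups. Among 7 adaptors and kinases of the MyD88 pathway, 1 passed as higher and 3 as lower at 24 h, near the shares of all loci (23.4% and 31.6%). The inhibitory kinase Irak3 was at 5.92 against 19.7 FPKM (fell by 1.58, SE 0.17, adjusted p = 4e-10). Of 6 further IL-1 family ligands only Il1f9, which encodes IL-36γ, was tested. It was named after its values were seen, and it was at 0.318 against 0.772 FPKM at 24 h (-0.42, SE 0.13, adjusted p = 0.0057).

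Genes with the most similar pattern over the 18 group means are given as a description, since these means share libraries and controls. Among 2652 loci with a unique symbol and a range of at least 1 log2 unit, those closest to Nlrp3 were Tlr9 (Pearson r = 0.967), Coro1a, Gbgt1, Lilrb3 and Rassf5 (0.958). Closest to Il1b were Tsc22d4 (0.895), Rassf2, Nr4a1, Zbtb34 and Ehd1 (0.879). Aim2 was closest to Cd180 (0.973), Bambi-ps1, Map3k9, Hmga2 and Slc20a1 (0.929), and Il1rn to Hsh2d (0.909), Apol9a, Treml2, Parvg and Slamf9 (0.881). Between members, the highest r was that of Il18 and Nlrp3 (0.915), and Il1b and Nlrp3 had an r of 0.724.

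The kit did not mark strand, and a gene annotated on the opposite strand shares exon sequence with Il1a (Gm14023), Il1b (Il1bos) and Pycard (Gm45205). Reads from both strands therefore enter those values, including the low values of Il1a. In mm10 the files place Il1b at chr2:129364580-129371120, Il18 at chr9:50565368-50581837, Nlrp3 at chr11:59542686-59566956, Aim2 at chr1:173420604-173466036, Nlrc4 at chr17:74426295-74459108, Casp1 at chr9:5298517-5307281, Casp4 at chr9:5308860-5336791, Pycard at chr7:127991373-127993867, Il1rn at chr2:24336860-24351491 and Il1a at chr2:129299610-129309972. All 10 are protein-coding in the GENCODE annotation, and at most 1.09% of the 50-base stretches of any of their transcripts occur in transcripts of another gene.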

How the data were processed

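The authors mapped paired reads of a poly(A) library that does not mark strand to mm10 and computed FPKM values, and they deposited 1 FPKM table per sample. The submitters' processing notes name TopHat2 2.0.7 and Cufflinks 2.0.2, and the gene annotation is not given in the sources used here. FPKM is relative within a sample, and the tables hold no counts, so absolute depth is unknown. Relative depth came from the steps of 12701 low loci.

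Values were joined on locus and name, estimates under 1e-06 set to 0, and log2(FPKM + 1) was tested for the 11146 loci with at least 1 FPKM in 1 sample, in limma 3.58.1 (R 4.3.3, eBayes with trend) over all 53 samples with 18 group means. P-values are two-sided and Benjamini-Hochberg adjusted per comparison. A gene passed at an adjusted p under 0.05, and a call in the text means such a pass. Genes that passed and also changed at least 2-fold were counted apart. The scripts were tested on simulated data. Members and lists were chosen with earlier results of these data known. The text names all 10 members and Stat6. From each list it names up to 4 genes that passed in WT with at least 2-fold, those with the largest change.

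The labels do not say what a replicate number marks. In WT every same-numbered pair of IL-4 and control samples deviated together with r over 0.1 at 3 h (lowest 0.316) and 6 h (0.105) but not at 1 h (0.027) or 24 h (0.096). Blocked values therefore stand beside the WT results at 3 and 6 h whose side of the threshold the block changed. Members that passed newly in the blocked difference between genotypes are named in the last section. The blocked results were known when this use of the block was settled. Alternatives were a pseudocount of 0.1, no filter, quantile normalization, the compared groups alone, the replicate block, each sample left out and Tukey's test. Leaving out a Stat6-/- replicate number in every group was chosen after seeing the data. Of the cell type markers, 1 is not reported here by name or value.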

Additional observations from a re-analysis of the deposited data

Results flagged for a closer look

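Among 80 sets of 4 WT samples (10 genes in 8 groups), 4 held a sample far from the other 3 by Dixon's ratio, which is the number that chance gives at about 1 in 20. Pycard was at 52.8 FPKM in replicate 1 at 0 h, against 31.7 to 32.6 FPKM in the others. Il1rn was at 27.5 FPKM in replicate 2 at 0 h, against 14.4 to 15.6 FPKM. Nlrp3 was at 16.9 FPKM in replicate 2 of the 6 h controls, against 14.5 to 14.8 FPKM, and Nlrc4 at 6.15 FPKM in replicate 3 with IL-4 at 3 h, against 5.64 to 5.72 FPKM.

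The response to IL-4 differed between WT and Stat6-/- in 8 tests of the difference. On the log2 scale it was -4.76 for Il1b, -1.84 for Nlrp3, -1.76 for Il18, -1.21 for Casp4 and -0.77 for Nlrc4 at 24 h, -0.71 for Nlrp3 and -0.59 for Nlrc4 at 6 h, and -0.93 for Nlrp3 at 3 h.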

How the results depend on the processing

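Of 2187 values of single members under the alternatives, 2068 kept their side of the threshold, 68 passed newly and 48 no longer passed. Another 3 reversed their direction and passed in at least a single fit. Among the 2068, 131 values that passed in neither fit also changed sign. The 3 reversals concern Stat6-/- against WT controls. Il18 (0.39) and Aim2 (0.23) were higher in Stat6-/- without replicate 1, and Il1b was lower (-0.64) without replicate 2.

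Members at least 2-fold changed are counted next. At 3 h in WT Tukey's test gave 0 in place of 1. At 6 h the replicate block and the compared groups alone each gave 1 (Il1b) in place of 0, and for the WT controls at 24 against 0 h each also gave 1. Quantile normalization left 1 of 2 in the 24 against 6 h response. For the WT minus Stat6-/- response the block gave 1 at 3 h and 2 at 6 h in place of 0. With single samples left out these counts were 0 to 1 at 3 h, 0 to 2 at 6 h and 2 to 4 at 24 h. Without either Stat6-/- replicate number, where the spread comes from WT alone, the 3 h count was 1, the 6 h count was 1 without replicate 1 and 0 without replicate 2, and the count against WT controls was 2 and 0. The causes were not tested beyond the construction of each alternative.

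In WT at 1 and 24 h the replicate numbers were not shown to pair the samples (lowest r 0.027 and 0.096). In Stat6-/- same-numbered IL-4 and control samples deviated together at every time, with r from 0.79 to 0.90. Over all times 12 of 15 WT and 8 of 8 Stat6-/- IL-4 samples correlated best with the control of their own number. Such pairing is a hint from the data and not from the design. In Stat6-/- the deviations of the 2 samples of a group mirror each other, so the result of 1 sample fixes that of the other. With the replicate number as a block more members passed than those given at 3 and 6 h. In WT these were Il1b (-0.97, adjusted p = 0.00027), Aim2 and Casp4 at 1 h, and Il18 and Aim2 in the 24 against 6 h response. In the WT controls at 24 against 0 h 7 members passed in place of 1. In the difference between genotypes Il1b, Il18 and Aim2 passed newly at 3 and 6 h, and Pycard at 24 h (0.50, adjusted p = 0.020). No member lost its call with the block. For Stat6-/- against WT controls no paired analysis was possible because replicate numbers are nested in genotype. Absolute depth is unknown, so low values such as those of Il1a carry no counting error here, and 2 Stat6-/- samples per group limit what was detectable.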
